A study of Mus musculus with 8 samples.

Results

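Mitochondrial ribosomal proteins, the proteins of the ribosome inside mitochondria, were followed at the level of their messenger RNA in mouse natural killer (NK) cells. They were taken as every row of the raw count matrix whose symbol is Mrpl or Mrps followed by a number, with or without a final a or b, which gave 76 of 27179 genes. Of these, 50 encode proteins of the large subunit and 25 encode proteins of the small subunit, while Mrps36, despite its symbol, encodes a subunit of the alpha-ketoglutarate dehydrogenase complex. Mrps18a and Mrps30 were counted with the large subunit, where their proteins sit. The pattern does not take in Mrps18c or the mitoribosomal proteins that carry unrelated names. RNA was sequenced in 8 libraries, 2 per group: CIS-/- (CIS-null) NK cells in vitro, wild-type NK cells in vitro, CIS-null NK cells ex vivo and wild-type NK cells ex vivo. All mice were of strain C57BL/6, and every group was drawn from spleen, bone marrow and blood and enriched with anti-CD49b (DX5) beads. CIS, the product of Cish, is an inhibitor of cytokine signalling, and the series asks how its loss alters NK cells. The age and number of the mice, how the Cish allele was made, and the medium, cytokine and duration of culture are not given in the labels.

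Mitochondria keep a small genome of their own that encodes core subunits of the respiratory chain, and the mitoribosome exists to translate those few messenger RNAs. Its ribosomal RNA is made inside the organelle, but all of its proteins are encoded in the nucleus, made in the cytosol and imported, so building a mitoribosome needs both genomes to be expressed together. Many of its proteins descend from bacterial ribosomal proteins, and others were added in the mitochondrial lineage. Activated NK cells and other activated lymphocytes are known to enlarge their mitochondrial mass and respiration.

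Libraries held 21485710 to 28065268 counts. Members took 0.396% and 0.457% of the counts of the CIS-null in vitro libraries, 0.351% and 0.348% of the wild-type in vitro libraries, 0.250% and 0.217% of the CIS-null ex vivo libraries, and 0.219% and 0.218% of the wild-type ex vivo libraries. In CPM (counts scaled to a common library size), Cish stood at 21.2 and 17.2 CPM in CIS-null cells in vitro, 219.8 and 201.9 CPM in wild-type cells in vitro, 1.29 and 2.64 CPM in CIS-null cells ex vivo, and 9.26 and 9.12 CPM in wild-type cells ex vivo. Sex-linked transcripts also separated the groups: Xist, transcribed from the inactive X chromosome, lay at 130.7 and 89.7 CPM in CIS-null cells in vitro and at 0 and 0.0351 CPM in wild-type cells in vitro, but at 0.322 and 0.197 CPM in CIS-null cells ex vivo and 119.6 and 162.1 CPM in wild-type cells ex vivo. Eif2s3y, from the Y chromosome, ran opposite in vitro: CIS-null libraries held 0.039 and 0 CPM of it, against 135.2 and 122 CPM for wild type. Ex vivo, CIS-null libraries held 84.9 and 70.4 CPM of Eif2s3y, and wild-type libraries 34.1 and 21.7 CPM. The wild-type ex vivo libraries thus carried both transcripts, and whether they mixed mice of both sexes was not tested. Genotype and sex-linked expression therefore cannot be told apart within either state. Xist was also higher in vitro than ex vivo in CIS-null cells and lower in wild-type cells, so the culture comparisons and the interaction cannot be told apart from sex-linked expression either. All members lie on autosomes, and a part of sex in their values was not tested. All 12 NK cell markers on a list were detected in every library, including Ncr1, the receptor NKp46, at 476 to 694 CPM in vitro and 1690 to 1884 CPM ex vivo. Replicates differed beyond counting error in all 4 groups. The labels do not tell whether they are separate animals or cultures, and p-values then reflect only the spread between these libraries, which may be technical.

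Levels spanned a wide range within the family. Per length, the highest was Mrpl33, a homologue of a bacterial large-subunit protein, at a mean of 224.4 RPKM, the CPM divided by gene length in kilobases, over the 8 libraries. It was followed by Mrpl52 at 219.7 RPKM, Mrps16 at 142.2 RPKM, Mrps21 at 134.5 RPKM and Mrpl30 at 130.0 RPKM. At the other end stood Mrps17 at 8.85 RPKM, Mrpl1 at 5.15 RPKM, Mrps25 at 4.99 RPKM and Mrps36 at 1.95 RPKM. Mrpl36 held 1 to 4 reads per library, too few to be tested, and its annotated exons overlap those of Ndufs6, a respiratory complex I subunit on the opposite strand. How reads shared by overlapping genes were counted is not stated, and 31 members have an exon that overlaps another gene. The order of members was nearly the same in all groups: Spearman's rho of mean RPKM over the 75 tested members was 0.989 between CIS-null and wild-type cells in vitro, 0.996 between CIS-null and wild-type cells ex vivo, and 0.940 between CIS-null cells in vitro and ex vivo, as a description of genes that share their libraries.

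The family as a whole was higher in culture, in both subunits and both genotypes. Summed over all 76 members, the level was 4190 and 4977 CPM in CIS-null cells in vitro, 3429 and 3400 CPM in wild-type cells in vitro, 2475 and 2130 CPM in CIS-null cells ex vivo, and 2132 and 2114 CPM in wild-type cells ex vivo. Every in vitro library thus lay above every ex vivo library, and the 2 CIS-null in vitro libraries lay highest. The large-subunit members summed to 2969 and 3528 CPM in CIS-null cells in vitro, 2438 and 2424 CPM in wild-type cells in vitro, 1746 and 1503 CPM in CIS-null cells ex vivo, and 1508 and 1482 CPM in wild-type cells ex vivo. Small-subunit members summed to 1218 and 1446 CPM in CIS-null cells in vitro, 989.7 and 974.9 CPM in wild-type cells in vitro, 728.4 and 625.9 CPM in CIS-null cells ex vivo, and 623.3 and 630.7 CPM in wild-type cells ex vivo. Both subunits showed the same order. In bulk samples a change in the share of cells that express a gene and a change in RNA per cell cannot be told apart.

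**Figure D1:**
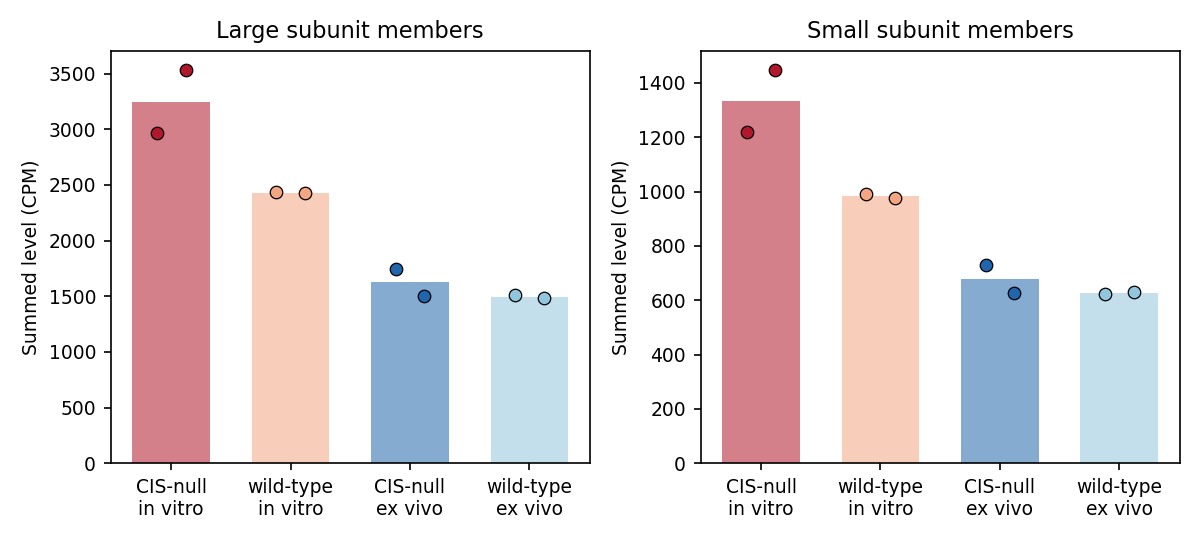
Summed level of the 50 large-subunit and 25 small-subunit members (y axis, CPM from 0) in each of the 8 libraries; points are libraries and bars are the means of the 2 libraries of a group. All in vitro libraries lie above all ex vivo libraries in both panels, and the CIS-null in vitro libraries lie highest.

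The comparison of cells in vitro with cells ex vivo asks what culture changes. In CIS-null cells 71 of 75 tested members rose and 0 fell at an adjusted p below 0.05 (edgeR quasi-likelihood test, Benjamini-Hochberg adjustment over 13184 genes), where 72.4% of all tested genes were called, 34.8% as higher and 37.5% as lower. In wild-type cells 65 of 75 rose and 0 fell, where 63.7% of all tested genes were called, 32.1% as higher and 31.6% as lower. The median log2 fold change over members was 1.00 in CIS-null cells, against a median of -0.05 over all tested genes, and 0.75 in wild-type cells, against -0.0025 over all tested genes. Of the 75 members, 65 rose in both genotypes, 6 were called in CIS-null cells alone and 4 in neither. Both in vitro libraries lay above both ex vivo libraries for 72 of 75 members in CIS-null cells and for 71 of 75 in wild-type cells, against 41.4% and 43.5% of all tested genes. A rise of at least 2-fold was called for 37 members in CIS-null cells, beside 18.8% of all tested genes, and for 15 in wild-type cells, beside 14.7%. Member lengths ran from 407 to 6712 bases with a median of 1055, against 2682.5 over all tested genes, and fold changes fell with gene length over all tested genes (Spearman's rho -0.307 in CIS-null and -0.226 in wild-type cells, a description across genes). With each library's trend in length removed, 62 members rose and 0 fell in CIS-null cells (median 0.63), where 37.3% of all tested genes rose and 34% fell (median 0.03). In wild-type cells 56 then rose and 2 fell (median 0.54), where 34.8% of all tested genes rose and 29.4% fell (median 0.05).

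**Figure D2:**
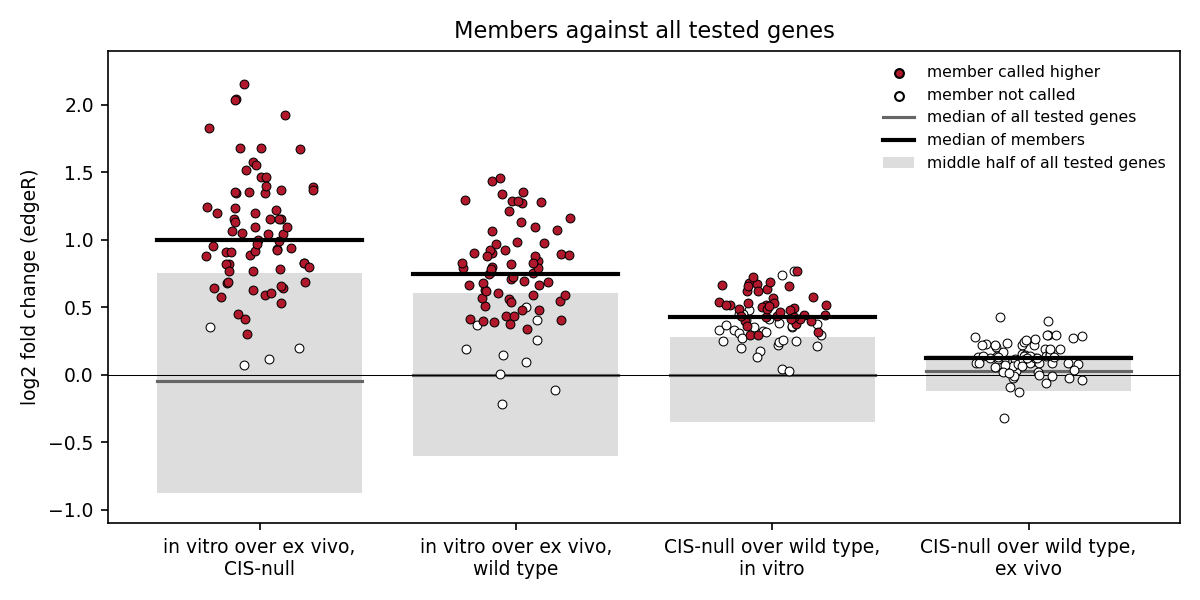
log2 fold change (y axis, edgeR) of the 75 tested members in 4 comparisons; red points passed the adjusted p of 0.05 and white points did not, the black line is the members' median, and the grey box and line are the quartile range and median of all 13184 tested genes. The members' median lies above the median of all tested genes in both culture comparisons and between genotypes in vitro, while no member was called ex vivo. Some members lie within the grey box.

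Among homologues of bacterial large-subunit proteins, 28 of 29 tested members rose in CIS-null cells and 25 of 29 in wild-type cells. Mrpl17 stood at 100.5 and 121.3 CPM in CIS-null cells in vitro, 67.3 and 72.4 CPM in wild-type cells in vitro, 33.7 and 28.8 CPM in CIS-null cells ex vivo, and 27.6 and 29.3 CPM in wild-type cells ex vivo. The log2 fold change of culture for Mrpl17 was 1.83 in CIS-null cells (SE 0.125, edgeR adjusted p = 4.96e-06, 2 libraries per group) and 1.30 in wild-type cells (SE 0.124, edgeR adjusted p = 4.42e-05). Mrpl33 lay at 158.2 and 200 CPM in CIS-null cells in vitro, 126.9 and 123.1 CPM in wild-type cells in vitro, 65.7 and 54.7 CPM in CIS-null cells ex vivo, and 54.6 and 53.4 CPM in wild-type cells ex vivo. This was a log2 fold change of culture of 1.57 in CIS-null cells (SE 0.134, edgeR adjusted p = 1.57e-05) and 1.21 in wild-type cells (SE 0.133, edgeR adjusted p = 9.63e-05). Mrpl27, whose bacterial homologue lies at the peptidyl transferase centre, rose by 1.46 and Mrpl35 by 1.35 on the log2 scale in CIS-null cells, and by 1.35 and 1.13 in wild-type cells. Mrpl12, the homologue of the bacterial stalk protein that recruits translation factors, lay at 49.4 and 55.9 CPM in CIS-null cells in vitro, 35.4 and 35.6 CPM in wild-type cells in vitro, 21.2 and 16.9 CPM in CIS-null cells ex vivo, and 17.4 and 18.5 CPM in wild-type cells ex vivo. It rose with culture by 1.47 in CIS-null cells (SE 0.127, edgeR adjusted p = 1.69e-05) and by 0.99 in wild-type cells (SE 0.126, edgeR adjusted p = 0.000226). The 4 stalk-region members on a list, Mrpl10, Mrpl11, Mrpl12 and Mrpl53, all rose in both genotypes.

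Of the large-subunit members without a bacterial counterpart, 18 of 20 rose in each genotype. Mrpl54 had the largest change of these, at 57.2 and 71.4 CPM in CIS-null cells in vitro, 41.4 and 38.9 CPM in wild-type cells in vitro, 17.8 and 13.6 CPM in CIS-null cells ex vivo, and 14.4 and 15.3 CPM in wild-type cells ex vivo. Its log2 fold change of culture was 2.04 in CIS-null cells (SE 0.155, edgeR adjusted p = 8.85e-06) and 1.43 in wild-type cells (SE 0.154, edgeR adjusted p = 8.66e-05). Mrpl45, which in the mammalian mitoribosome helps to tether the tunnel exit to the inner membrane, lay at 55.5 and 60.2 CPM in CIS-null cells in vitro, 49.2 and 45.4 CPM in wild-type cells in vitro, 20.3 and 20.2 CPM in CIS-null cells ex vivo, and 18.7 and 18.7 CPM in wild-type cells ex vivo. The replicates of Mrpl45 lay close together, and its log2 fold change was 1.51 in CIS-null cells (SE 0.0948, edgeR adjusted p = 3.23e-06) and 1.34 in wild-type cells (SE 0.0948, edgeR adjusted p = 8.71e-06). Mrpl52, Mrpl48 and Mrpl41 rose by 1.56, 1.40 and 1.39 in CIS-null cells and by 1.29, 1.28 and 1.16 in wild-type cells. Pseudogenes of the same name exist for 3 members, Mrpl48, Mrpl23 and Mrps36, so part of their reads could be assigned elsewhere. Mrps18a, related in sequence to a bacterial small-subunit protein but built into the large subunit, rose by 1.00 in CIS-null cells (SE 0.150, edgeR adjusted p = 0.000374) and by 0.44 in wild-type cells (SE 0.151, edgeR adjusted p = 0.0319), and Mrps30 rose by 0.63 and 0.38. The wild-type calls of both were lost with the length trend removed, at 0.18 for Mrps18a (edgeR adjusted p = 0.151) and 0.21 for Mrps30 (edgeR adjusted p = 0.124), and were kept in 12 and 5 of 20 alternatives.

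Small-subunit members with a bacterial counterpart rose in 15 of 15 cases in CIS-null cells and in 14 of 15 in wild-type cells, and those without one in 9 of 10 and 7 of 10. Mrps6 lay at 36.8 and 48.1 CPM in CIS-null cells in vitro, 25.4 and 24.4 CPM in wild-type cells in vitro, 11.2 and 11.1 CPM in CIS-null cells ex vivo, and 10.1 and 10.4 CPM in wild-type cells ex vivo. Its log2 fold change of culture was 1.92 in CIS-null cells (SE 0.141, edgeR adjusted p = 7.08e-06) and 1.28 in wild-type cells (SE 0.140, edgeR adjusted p = 9.41e-05). Mrps6 shares exons with Slc5a3, an inositol transporter gene on the same strand, so its reads may not be its alone. Mrps16 lay at 124.7 and 156.9 CPM in CIS-null cells in vitro, 99.8 and 94.8 CPM in wild-type cells in vitro, 49.7 and 38.1 CPM in CIS-null cells ex vivo, and 40.3 and 39.5 CPM in wild-type cells ex vivo. This gave log2 fold changes of 1.68 in CIS-null cells (SE 0.150, edgeR adjusted p = 2.01e-05) and 1.28 in wild-type cells (SE 0.149, edgeR adjusted p = 0.000130). Mrps10 rose by 2.04 in CIS-null cells and by 1.06 in wild-type cells. The largest change of any member in both genotypes was that of Mrps18b, a relative of Mrps18a, at 16.5 and 19.8 CPM in CIS-null cells in vitro, 10.5 and 12.3 CPM in wild-type cells in vitro, 4.47 and 3.70 CPM in CIS-null cells ex vivo, and 4.63 and 3.67 CPM in wild-type cells ex vivo. Mrps18b rose by 2.16 in CIS-null cells (SE 0.186, edgeR adjusted p = 1.69e-05) and by 1.46 in wild-type cells (SE 0.185, edgeR adjusted p = 0.000211). Mrps12, a protein of the decoding centre, rose by 0.92 in CIS-null cells and by 0.54 in wild-type cells, the second call being lost with the length trend removed (0.29, edgeR adjusted p = 0.0513), and Mrps34 and Mrps27 rose by 1.37 and 1.04 in CIS-null cells and by 0.89 and 0.70 in wild-type cells. Mrps36, the member outside the ribosome, was low at 0.789 to 2.48 CPM and rose by 1.37 in CIS-null cells (edgeR adjusted p = 0.00176) and by 0.79 in wild-type cells (edgeR adjusted p = 0.0345). The wild-type call of Mrps36 was kept in 7 of 19 alternatives and lost with the length trend removed (0.54, edgeR adjusted p = 0.143).

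**Figure D3:**
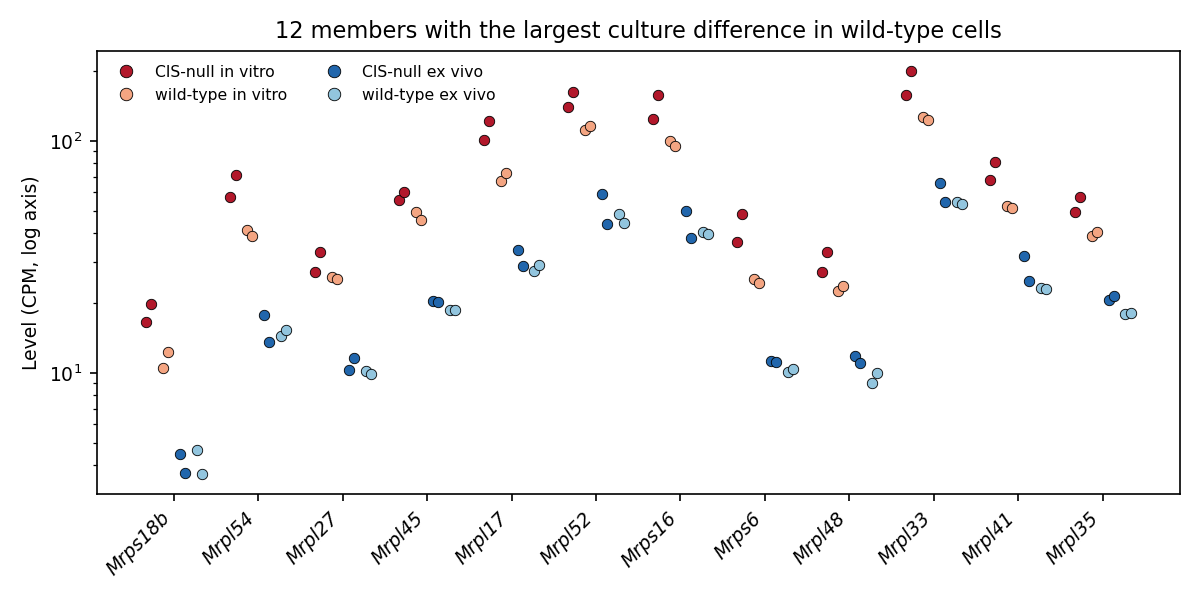
Level (y axis, CPM on a log axis) of the 12 members with the largest culture difference in wild-type cells, each point 1 library, coloured by group. The 12 were taken from called members whose wild-type libraries did not overlap between states, so that separation was set by the choice. For each of the 12 the CIS-null in vitro libraries lie above both the CIS-null ex vivo and the wild-type in vitro libraries.

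A few members did not follow. Mrpl9, a homologue of a bacterial large-subunit protein, lay at 97.1 and 114.5 CPM in CIS-null cells in vitro, 108.1 and 97.1 CPM in wild-type cells in vitro, 107.5 and 87.4 CPM in CIS-null cells ex vivo, and 97.3 and 94.5 CPM in wild-type cells ex vivo. Its libraries overlapped between the states in both genotypes, and its log2 fold change of culture was 0.12 in CIS-null cells (SE 0.127, edgeR adjusted p = 0.419) and 0.10 in wild-type cells (SE 0.127, edgeR adjusted p = 0.526). Mrpl49 gave 0.07 and 0.01, and Mrps31 gave 0.35 and 0.19, none of which passed. For Mrpl44, which resembles the RNase III family, the libraries stood at 46.8 and 53.6 CPM in CIS-null cells in vitro, 37.6 and 38.8 CPM in wild-type cells in vitro, 46.8 and 40.8 CPM in CIS-null cells ex vivo, and 41.7 and 40.8 CPM in wild-type cells ex vivo. Its log2 fold change was 0.20 in CIS-null cells (SE 0.106, edgeR adjusted p = 0.126) and -0.11 in wild-type cells (SE 0.107, edgeR adjusted p = 0.388). With the length trend removed Mrpl44 was called lower in wild-type cells, at -0.31 (edgeR adjusted p = 0.00732). The 6 members called in CIS-null cells alone were Mrpl4, Mrpl23, Mrpl34, Mrps22, Mrps23 and Mrps24. With the length trend removed 5 of these 6 lost the CIS-null call and Mrpl23 kept it (edgeR adjusted p = 0.0217). In the wild-type libraries alone Mrpl23, Mrpl34, Mrps22 and Mrps23 were called higher there too, and no interaction passed for any of the 6. Mrps24 lay at 50.1 and 63.6 CPM in CIS-null cells in vitro, 36.1 and 37.9 CPM in wild-type cells in vitro, 44.5 and 40.8 CPM in CIS-null cells ex vivo, and 40.98 and 45.03 CPM in wild-type cells ex vivo. It rose by 0.42 in CIS-null cells (SE 0.126, edgeR adjusted p = 0.0157), a call kept in 14 of 20 alternatives and lost with the length trend removed (-0.04, edgeR adjusted p = 0.746). It gave -0.22 in wild-type cells (SE 0.126, edgeR adjusted p = 0.162), where it was called lower with the length trend removed (-0.47, edgeR adjusted p = 0.00258) and in the wild-type libraries alone (-0.22, edgeR adjusted p = 0.0345). Mrps24 shares an exon with Urgcp on the same strand.

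Because so many members moved together, the DNA before their starts was examined, using RefSeq promoter windows (build GRCm38.p6) that held 67 of the 76 members in 73 windows of 250 bases before to 50 bases after the start. Letters of the NRF1 motif (GCGCA and GCGC with any 1 base between them, searched on both strands) stood in 17.8% of member windows, against 9.90% of the windows of tested genes and 4.60% of all 32851 windows. NRF1 is a factor known to act on nuclear genes for mitochondrial proteins. Letters of the ETS motif (CCGGAAG), which the respiratory factor GABP binds among others, stood in 32.9%, against 17.7% and 8.86%, and those of YY1 (AAGATGGC) in 16.4%, against 4.44% and 2.75%. The E-box (CACGTG), bound by Myc among others, stood in 8.22%, against 9.80% and 7.15%. These are descriptions of letters, not of binding. The 250 bases before the start are shown for 4 members that rose in culture and for the 2 with an NRF1 match that were called in neither genotype, with matches in capitals on whichever strand they lie. Mrpl17 (chr7:105811088-105811337, minus strand) holds an ETS match and an NRF1 match, Mrpl45 (chr11:97315466-97315715, plus strand) holds 2 NRF1 matches, and Mrpl52 (chr14:54426659-54426908, plus strand) an ETS match. Mrps12 (chr7:28741822-28742071, minus strand) holds a YY1 match and starts 172 bases from Sars2, the mitochondrial seryl-tRNA synthetase gene, which runs the other way. Mrpl9 (chr3:94443086-94443335, plus strand) and Mrpl44 (chr1:79775768-79776017, plus strand) each hold an NRF1 match.

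Mrpl17: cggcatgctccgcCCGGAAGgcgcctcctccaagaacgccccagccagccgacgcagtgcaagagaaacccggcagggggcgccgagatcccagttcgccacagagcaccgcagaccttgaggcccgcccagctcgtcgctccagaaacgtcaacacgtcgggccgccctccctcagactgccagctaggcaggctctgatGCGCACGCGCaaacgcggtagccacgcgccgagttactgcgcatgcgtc
Mrpl45: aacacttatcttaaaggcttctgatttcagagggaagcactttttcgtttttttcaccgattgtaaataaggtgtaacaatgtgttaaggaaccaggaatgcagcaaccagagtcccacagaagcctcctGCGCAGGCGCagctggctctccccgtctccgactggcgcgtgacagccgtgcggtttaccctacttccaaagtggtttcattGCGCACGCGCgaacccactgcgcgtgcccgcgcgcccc
Mrpl52: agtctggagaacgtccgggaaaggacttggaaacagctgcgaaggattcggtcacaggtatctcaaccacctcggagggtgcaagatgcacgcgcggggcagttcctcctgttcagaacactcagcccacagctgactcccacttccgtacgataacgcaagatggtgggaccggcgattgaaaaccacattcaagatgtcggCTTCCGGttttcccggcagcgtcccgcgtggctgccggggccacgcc
Mrps12: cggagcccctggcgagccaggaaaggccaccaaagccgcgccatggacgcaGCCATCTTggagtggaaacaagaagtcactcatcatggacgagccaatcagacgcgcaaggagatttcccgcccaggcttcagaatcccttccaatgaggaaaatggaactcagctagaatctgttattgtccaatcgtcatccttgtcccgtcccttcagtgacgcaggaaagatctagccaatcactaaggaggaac
Mrpl9: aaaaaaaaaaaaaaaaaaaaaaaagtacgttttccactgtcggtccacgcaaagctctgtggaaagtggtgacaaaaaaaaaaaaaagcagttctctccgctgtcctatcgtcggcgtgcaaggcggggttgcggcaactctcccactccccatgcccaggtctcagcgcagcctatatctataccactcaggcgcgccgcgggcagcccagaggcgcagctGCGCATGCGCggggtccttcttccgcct
Mrpl44: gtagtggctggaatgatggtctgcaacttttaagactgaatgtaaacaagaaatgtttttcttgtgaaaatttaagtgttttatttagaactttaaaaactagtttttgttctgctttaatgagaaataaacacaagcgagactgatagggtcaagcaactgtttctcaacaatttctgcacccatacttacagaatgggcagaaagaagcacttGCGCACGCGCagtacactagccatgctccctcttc

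The response of members with and without these letters is given as counts and medians. In CIS-null cells 11 of the 13 tested members with an NRF1 match rose in culture (median log2 fold change 1.10) and 51 of 53 without one (0.97), and in wild-type cells 11 of 13 (0.84) and 46 of 53 (0.71). With an ETS match, 24 of 24 rose in CIS-null cells (1.07) and 21 of 24 in wild-type cells (0.85), against 38 of 42 (0.95) and 36 of 42 (0.70) without one. With a YY1 match, 10 of 11 rose in CIS-null cells (1.00) and 9 of 11 in wild-type cells (0.70). Without one it was 52 of 55 (0.99) and 48 of 55 (0.75). With an E-box, 3 of 3 rose in each genotype (1.09 and 0.75), against 59 of 63 (0.99) and 54 of 63 (0.72). Between genotypes in vitro the medians with and without a match were 0.40 and 0.43 for NRF1 and 0.43 and 0.42 for ETS. For YY1 they were 0.47 and 0.41, and for the E-box 0.51 and 0.42. By GENCODE starts, a start within 1000 bases of the start of a gene on the opposite strand, running away from it, was found for 17 of 76 members (22.4%), against 1258 of 11845 tested protein-coding genes (10.6%). Some of these neighbours are mitochondrial themselves, such as Sars2 beside Mrps12 and Ptcd2 beside Mrps27. Mrps11 and Mrpl46, 1 protein of each subunit, lie on opposite strands of chromosome 7 with exons that overlap in the GENCODE annotation, and they rose by 1.13 and 0.64 in CIS-null cells and by 0.79 and 0.41 in wild-type cells. Mrpl46 lost both calls with the length trend removed (0.19 in CIS-null and 0.16 in wild-type cells).

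The comparison of CIS-null with wild-type cells in vitro asks what the loss of CIS changes in culture. All 75 tested members had a higher mean in CIS-null cells, 43 of them passed at an adjusted p below 0.05 and 0 were lower, where 25.6% of all tested genes passed, 11% as higher and 14.6% as lower (edgeR). The median log2 fold change was 0.43, against 0 over all tested genes, and no called difference reached 2-fold. In 72 of 75 members both CIS-null libraries lay above both wild-type libraries, against 33.7% of all tested genes. The calls rest on few libraries: without CIS-null in vitro replicate 2 only 1 member passed (1.33%, beside 1.38% of all tested genes), without wild-type in vitro replicate 1 it was 2 (2.67%, beside 2.93%), and without wild-type in vitro replicate 2 it was 3 (4%, beside 2.55%). Without wild-type ex vivo replicate 1 the count was 19 (beside 5.35% of all tested genes), and without replicate 2 it was 18 (beside 5.3%). In none of these fits was a member called lower, and the median stayed between 0.31 and 0.55 whichever of the 8 libraries was left out. CIS-null in vitro replicate 2 exceeded replicate 1 in 74 of 75 members, by a median of 0.25 on the log2 scale.

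Gene length moved with this comparison. Over all 13184 tested genes the log2 fold change between genotypes in vitro fell with gene length (Spearman's rho -0.461), and it fell too between the 2 CIS-null in vitro replicates (replicate 2 over replicate 1, rho -0.477). Tested genes of 780 to 1549.5 bases, the quartile range of member lengths, numbered 2137 and had a median of 0.25, with 451 called higher and 32 lower. With each library's length trend removed, the members' median was 0.19 and 20 members were called higher (26.7%, beside 11.9% of all tested genes), 19 of them among the 43. Scaling by total counts alone moved the median over all tested genes to -0.13 and left 19 called and a median of 0.29. How much of the genotype difference belongs to gene length cannot be told apart from these 4 libraries.

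Of the 10 called members with the largest difference, 5 belong to the large subunit and 5 to the small. Mrps6 was 0.77 higher in CIS-null cells on the log2 scale (SE 0.133, edgeR adjusted p = 0.00748), and it passed in every one of 20 alternatives. Mrpl17 was 0.67 higher (SE 0.120, edgeR adjusted p = 0.00858) and remained called with the length trend removed, at 1.09 (edgeR adjusted p = 0.00413), but not without CIS-null in vitro replicate 2 or wild-type in vitro replicate 1. Mrps18a lay at 33.7 and 44.5 CPM in CIS-null cells, against 24.2 and 24.3 CPM in wild-type cells in vitro, a log2 difference of 0.69 (SE 0.147, edgeR adjusted p = 0.0139). Mrpl20, an assembly protein of the bacterial large subunit by homology, lay at 102 and 125.1 CPM in CIS-null cells, against 71.4 and 72.4 CPM in wild-type cells in vitro, a log2 difference of 0.66 (SE 0.135, edgeR adjusted p = 0.0122). Members could enter these 10 only if their CIS-null and wild-type libraries did not overlap. Mrps28 gave 0.72, Mrpl54 0.68, Mrps18b 0.67, Mrps10 0.65, Mrpl55 0.63 and Mrps24 0.62. Of these 6, Mrpl54 and Mrps24 remained called with the length trend removed (edgeR adjusted p = 0.0384 and 0.0321), whereas Mrps28 (0.0576), Mrps18b (0.0695), Mrps10 (0.0507) and Mrpl55 (0.0911) did not. Without CIS-null in vitro replicate 2 all 10 but Mrps6 lost the call. Among landmark members, Mrpl12 was 0.57 higher, Mrps12 0.49, Mrps27 0.47, Mrps34 0.44 and Mrpl44 0.40, all called. With the length trend removed Mrpl12 kept its call (0.29, edgeR adjusted p = 0.0371), whereas Mrps12 (0.14, adjusted p = 0.401), Mrps27 (0.36, 0.0537), Mrps34 (0.15, 0.220) and Mrpl44 (0.22, 0.0770) lost theirs. Mrps22 gave 0.41 (edgeR adjusted p = 0.093), Mrps30 0.31 (0.136) and Mrps36 0.77 (0.0570), none of which passed.

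**Figure D4:**
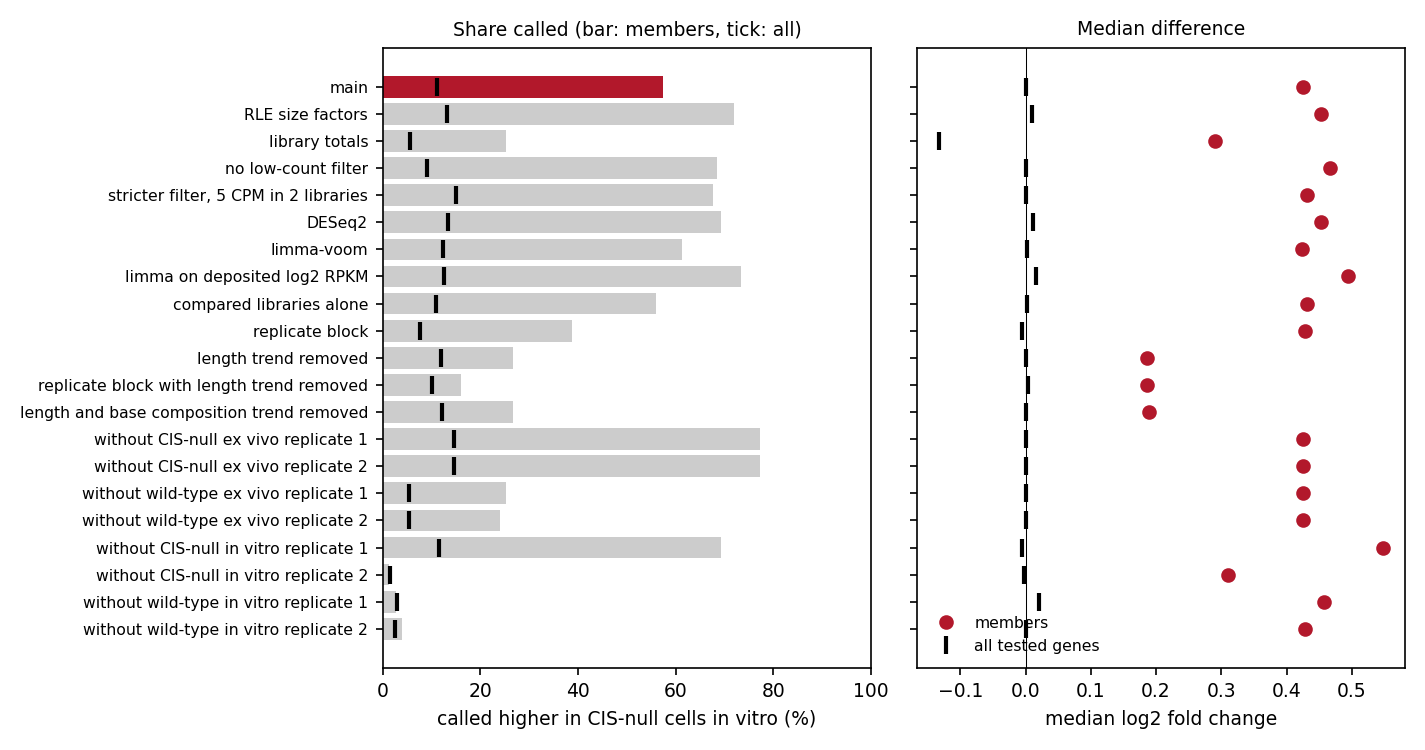
Genotype comparison in vitro under the main analysis and 20 alternatives: left, the share of tested members called higher in CIS-null cells (bars, %) with the share of all tested genes (ticks); right, the median log2 fold change of members (red points) and of all tested genes (ticks). The members' median stays above 0 in every setting, while the share called falls to 1.33% without CIS-null in vitro replicate 2.

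Ex vivo no member was called between CIS-null and wild-type cells. By edgeR 0 of 75 passed, where 0.0607% of all tested genes passed, 0.0303% as higher and 0.0303% as lower, and 0 passed by DESeq2 or limma-voom. At an unadjusted p below 0.05, 5 of 75 members were higher and 0 lower, where 3.08% of all tested genes were higher and 844 of 13184 passed in either direction. The median log2 fold change was 0.12, against 0.02 over all tested genes, and 65 of 75 members were positive, but the median was 0.01 without CIS-null ex vivo replicate 1 and 0.22 without replicate 2, so 1 library decided it. Replicate 2 of the CIS-null ex vivo cells exceeded replicate 1 in only 8 of 75 members, by a median of -0.21. Both CIS-null libraries lay above both wild-type libraries in 28 of 75 members, against 22% of all tested genes. The lowest p among positive members belonged to Mrps21 at 42.0 and 36.8 CPM in CIS-null cells, against 31.2 and 33.1 CPM in wild-type cells ex vivo, a log2 difference of 0.29 (SE 0.104, edgeR adjusted p = 0.731), then to Mrps25 (0.29) and Mrpl38 (0.24). Among negative ones Mrps10 gave -0.32, Mrpl3 -0.12 and Mrps26 -0.09, of which Mrps26 turned to 0.07 without CIS-null ex vivo replicate 2.

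Whether the genotype difference depends on the state was tested as an interaction, the difference in vitro minus the difference ex vivo. By edgeR 0 of 75 members passed, where 0.137% of all tested genes passed, 0.0531% as higher and 0.0834% as lower. At an unadjusted p below 0.05 there were 21 of 75 members, all with a positive interaction, against 7.18% of all tested genes with a positive one. In either direction 2586 of 13184 genes passed. DESeq2 called 2 members, Mrps10 and Mrps24 (2.67%), beside 1.69% of all tested genes as higher and 2.8% as lower. The median was 0.28, against -0.04 over all tested genes, and the log2 fold change of culture was larger in CIS-null than in wild-type cells in 73 of 75 members. Mrps10 had the largest interaction, with 21.2 and 24.9 CPM in CIS-null cells in vitro, 14.7 and 14.5 CPM in wild-type cells in vitro, 5.48 and 5.74 CPM in CIS-null cells ex vivo, and 7.83 and 6.20 CPM in wild-type cells ex vivo. CIS-null cells were thus the higher ones in vitro and the lower ones ex vivo, with an interaction of 0.97 (SE 0.215, edgeR adjusted p = 0.0965). Mrps24 gave 0.63 (edgeR adjusted p = 0.133) and Mrps6 0.64 (0.151), both of which passed without CIS-null in vitro replicate 1. Mrpl14, at -0.07, and Mrpl22, at -0.04, were the 2 negative members, and both turned positive under some alternatives. The genotype effect on the members was therefore not shown to differ between states, and a larger culture effect in CIS-null cells was not shown for any member.

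The partners of the mitoribosome were less uniform, taken from lists drawn up with earlier results of these data known. Beside the counts below, 34.8% of all tested genes rose and 37.5% fell with culture in CIS-null cells. In wild-type cells 32.1% rose and 31.6% fell. Between genotypes in vitro 11% of all tested genes were higher in CIS-null cells and 14.6% lower. Of 7 mitoribosomal proteins under other symbols, 5 rose and 1 fell in each genotype in culture, and 4 were higher in CIS-null cells in vitro with 0 lower. Mrps18c, another relative of Mrps18a and Mrps18b, rose by 1.45 in CIS-null cells (edgeR adjusted p = 3.2e-05) and by 1.01 in wild-type cells (edgeR adjusted p = 0.000347), and Gadd45gip1, a large-subunit protein also called CRIF1, rose by 1.07 and 0.57. The member that fell was Dap3, a GTP-binding small-subunit protein, at 34.1 and 37.1 CPM in CIS-null cells in vitro, 35.9 and 31.2 CPM in wild-type cells in vitro, 52.0 and 48.3 CPM in CIS-null cells ex vivo, and 47.0 and 46.7 CPM in wild-type cells ex vivo. Dap3 fell by 0.49 on the log2 scale in CIS-null cells (SE 0.103, edgeR adjusted p = 0.00243) and by 0.48 in wild-type cells (SE 0.103, edgeR adjusted p = 0.0035). Of 25 factors of mitoribosome assembly and ribosomal RNA modification, 12 rose and 2 fell in CIS-null cells and 9 rose and 2 fell in wild-type cells. The rises in wild-type cells lay near the share over all tested genes. Rnmtl1, a ribosomal RNA methyltransferase, Fastkd2, an RNA-binding assembly protein, and Ddx28, a helicase, rose by 1.89, 1.75 and 1.29 in CIS-null cells and by 1.49, 1.13 and 1.41 in wild-type cells. Only Fastkd2 of the 25 was called between genotypes in vitro (0.67, edgeR adjusted p = 0.00763). Of 15 mitochondrial translation factors, 9 rose and 2 fell in CIS-null cells and 8 rose and 1 fell in wild-type cells. The recycling factor Mrrf rose by 1.49 and 1.14, and Mtif3, an initiation factor, fell by 0.74 and 0.42. Of 10 genes of mitochondrial transcription and DNA maintenance, 3 rose and 2 fell in each genotype, and the rises lay near the share over all tested genes. Polg, the mitochondrial DNA polymerase, fell by 2.51 in CIS-null cells and 2.12 in wild-type cells.

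Messenger RNAs encoded by mitochondrial DNA, the templates of this ribosome, went the other way. Summed over 13 genes, they stood at 21630 and 16670 CPM in CIS-null cells in vitro, 17630 and 20280 CPM in wild-type cells in vitro, 30730 and 26550 CPM in CIS-null cells ex vivo, and 31240 and 29930 CPM in wild-type cells ex vivo. Every in vitro library lay below every ex vivo library. In culture 12 of 13 fell and 0 rose in each genotype, with medians of -0.89 in CIS-null and -1.14 in wild-type cells. Over all tested genes 37.5% fell in CIS-null and 31.6% in wild-type cells. COX1, a core subunit of cytochrome oxidase, fell by 0.38 in CIS-null cells (edgeR adjusted p = 0.0387) and by 0.50 in wild-type cells (edgeR adjusted p = 0.0150), and ATP6, of the ATP synthase, fell by 1.88 and 2.11. Between genotypes 0 of 13 were called in vitro, where 25.6% of all tested genes were called. Mitochondrial genes have near-identical copies in the nuclear genome, and the handling of such reads is not stated, so these levels are uncertain.

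**Figure D5:**
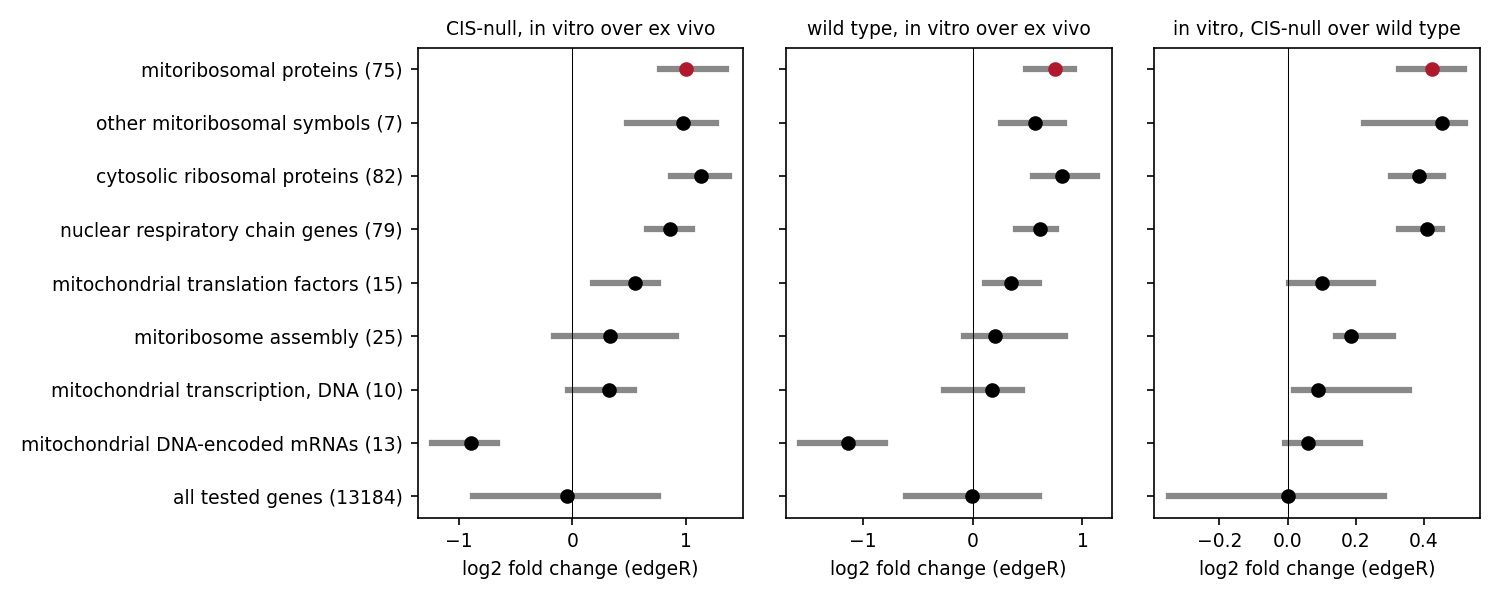
Median log2 fold change (points) and quartile range (bars) of each list, with the number of tested genes in brackets, for culture in CIS-null cells, culture in wild-type cells and CIS-null over wild-type cells in vitro. The members, in red, lie with cytosolic ribosomal proteins and nuclear respiratory chain genes, while mitochondrial DNA-encoded messenger RNAs lie below 0 in both culture comparisons.

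Nuclear gene families of like size moved in the same direction as the members. Over all tested genes 34.8% rose with culture in CIS-null cells and 32.1% in wild-type cells. Among 82 tested genes of the cytosolic ribosome, 71 were called higher and 2 lower in CIS-null cells (median 1.13) and 64 rose and 2 fell in wild-type cells (median 0.81). Of 79 tested nuclear genes of the respiratory chain, 69 rose and 4 fell in CIS-null cells (median 0.85) and 60 rose and 5 fell in wild-type cells (median 0.62). In vitro 36 respiratory chain genes were higher in CIS-null cells and 0 lower (median 0.41). Of the cytosolic ribosomal proteins 4 were higher and 1 lower, although their median was 0.39. Over all tested genes 11% were higher in CIS-null cells in vitro and 14.6% lower. Median gene length was 706.5 bases for cytosolic ribosomal proteins and 669 for respiratory chain genes, against 1055 for members and 2682.5 for all tested genes. No values with the length trend removed are given for these 2 families. A rise of most genes in culture was thus seen in these nuclear families as well.

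Other transcripts moved with the same comparisons, and their part in the members' values was not tested. Beside the counts below, 34.8% of all tested genes rose and 37.5% fell with culture in CIS-null cells. In wild-type cells 32.1% rose and 31.6% fell. Between genotypes in vitro 11% of all tested genes were higher in CIS-null cells and 14.6% lower. Of 15 proliferation genes, 14 rose in culture in each genotype and 0 fell, with summed levels of 1850 and 1932 CPM in CIS-null cells in vitro, 2073 and 2157 CPM in wild-type cells in vitro, 654.5 and 819.2 CPM in CIS-null cells ex vivo, and 769.5 and 768.1 CPM in wild-type cells ex vivo. Between genotypes in vitro 0 of 15 were called higher in CIS-null cells and 1 lower. Cd3d, Cd3e, Cd3g, Cd5 and Cd8a, 5 of 10 T cell markers on a list, passed as higher in CIS-null cells in vitro and 0 as lower, with summed levels of 847.9 and 810.1 CPM in CIS-null cells in vitro, 187.6 and 177.1 CPM in wild-type cells in vitro, 86.4 and 82.4 CPM in CIS-null cells ex vivo, and 75.9 and 82.3 CPM in wild-type cells ex vivo. The list did not rise as a whole: with culture 4 of 10 rose and 3 fell in CIS-null cells (median log2 fold change -0.49). In wild-type cells 2 rose and 5 fell (-0.95). Cd4, the defining marker of helper T cells, had 0 and 0.0401 CPM in CIS-null cells in vitro, against 0.104 and 0.0703 CPM in wild-type cells in vitro. B cell markers summed to at most 0.925 CPM in vitro, with Ms4a1, Cd22 and Pax5 at 0, and to between 16.3 and 88.3 CPM ex vivo. Markers of monocytes and macrophages summed to between 18.3 and 29.2 CPM in vitro, most of it Cd68, and to between 113.5 and 213 CPM ex vivo, where C1qa, C1qc and Csf1r were all detected. Basophil and mast cell markers summed to 51.9 and 74.2 CPM in CIS-null cells in vitro, 29.0 and 37.5 CPM in wild-type cells in vitro, 41.5 and 19.0 CPM in CIS-null cells ex vivo, and 11.5 and 9.31 CPM in wild-type cells ex vivo. Most of this list went the other way: with culture 2 of 8 rose and 6 fell in CIS-null cells (median log2 fold change -5.67). In wild-type cells 2 rose and 4 fell (-3.32). In vitro Mcpt8 was the 1 of 8 called between genotypes, higher in CIS-null cells, and the defining receptor genes Fcer1a and Ms4a2 were at 0. Ex vivo 8 of 8 had positive values and 0 were called. Of the 12 NK cell markers 2 rose and 8 fell with culture in CIS-null cells, and 2 rose and 9 fell in wild-type cells. Between genotypes in vitro 4 were higher in CIS-null cells and 2 lower.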

How the data were processed

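RNA was sequenced from 8 libraries of NK cells, 2 in each of 4 groups. The authors deposited raw counts per gene and a table of log2 RPKM values. Subread, featureCounts and limma, with the builds GRCm38 and mm10, are named per the submitters' processing notes, while versions, strand and the handling of shared reads are not given in the sources used here. Reads from a gene and an overlapping or antisense neighbour may therefore be mixed. Counts were tested with edgeR 4.0.16 in R 4.3.3 (filterByExpr with a minimum count of 10 and a minimum total of 15, TMM scaling, quasi-likelihood F test). All 8 libraries shared 1 fit with a term per group, and Benjamini-Hochberg adjustment covered the 13184 genes tested, and 0.05 was the threshold. CPM and RPKM were computed from the counts on TMM-scaled library sizes, RPKM with the gene lengths in the count table. The method was tested on simulated data. Alternatives were other scalings and filters, DESeq2 1.42.0, limma 3.58.1, the compared libraries alone, a replicate block, length and base composition trends removed, and each library left out. Depth was 21485710 to 28065268 counts per library.

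Members named with values were the 12 largest rises in wild-type culture, the 4 largest in CIS-null culture, the 10 largest genotype differences in vitro among called members, the lowest p-values in the remaining comparisons, the 5 highest and 5 lowest levels, and landmark members. The 12 and the 10 were taken only from called members whose libraries did not overlap between the compared groups. Members not called in culture, Mrpl46 and Mrps11 were named after their values were seen. The members and gene lists were chosen with earlier results of these data known. Gene positions come from GRCm38 annotation and promoter sequences from RefSeq tables. Mitochondrial ribosomal RNA was not analysed here.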

Additional observations from a re-analysis of the deposited data

How the results depend on the processing

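No alternative called a member lower in the genotype comparison in vitro, and calls in culture were the most stable: 58 to 71 of the 71 in CIS-null cells and 54 to 65 of the 65 in wild-type cells were kept. In CIS-null culture the median was 0.87 with library totals, 0.63 with the length trend removed, 0.63 with the block as well and 0.61 with length and base composition removed (chosen after seeing the data). In that last fit 2 members were called lower, beside 34.3% of all tested genes. In wild-type culture the median was 0.63 on deposited log2 RPKM, and 0.54, 0.54 and 0.52 in the 3 trend-removed fits. Each of these 3 had 2 members lower, beside 29.4%, 28.5% and 30.1% of all tested genes. In the compared libraries alone 1 member was lower, beside 36.6%. Between genotypes in vitro 19 members (25.3%, beside 5.64% of all tested genes) were called with library totals (median 0.29), 20 (26.7%, beside 11.9%) with length removed (0.19), 12 (16%, beside 10.1%) with length and block (0.19) and 20 (26.7%, beside 12.1%) with length and base composition (0.19). Leaving out 1 library gave medians of 0.31 to 0.55, and a lone library was assumed to vary like the other groups. For the interaction DESeq2 called 2 members (2.67%, beside 1.69% of all tested genes as higher and 2.8% as lower), and leaving out 1 library gave 0 to 2 (2.67% at most, where 0.569% of all tested genes were higher and 2.22% lower), with medians of 0.15 to 0.40, and the 3 trend-removed medians were 0.14, 0.14 and 0.12. Ex vivo the median ran from 0.01 to 0.22. Deviations of replicate 1 from its group mean correlated at -0.23 to 0.15 between groups. The labels do not say whether libraries of the same number share more than that number, and these correlations cannot tell. With the number as a replicate block 29 members (38.7%, beside 7.65%) were called between genotypes in vitro. Reversals were in members near 0: the interaction of Mrpl14 (0.0676 on log2 RPKM, -0.2423 to 0.1302 leaving out a library), that of Mrpl22 (0.0145 with no filter, 0.0679 on log2 RPKM, -0.2867 to 0.1687 leaving out a library) and Mrps26 ex vivo (-0.2797 to 0.074 leaving out a library). The cause was not tested. With 2 libraries per group, differences below 2-fold are weakly resolved.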

Other observations

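Regulators of mitochondrial biogenesis were called in both directions. Of 10 on a list, 4 rose and 5 fell in culture in CIS-null cells, and 3 rose and 3 fell in wild-type cells (edgeR). C1qbp, a matrix protein that binds mitochondrial RNA, rose by 1.97 in CIS-null and 1.34 in wild-type cells on the log2 scale and was 0.61 higher in CIS-null cells in vitro. Myc rose by 1.11 and 1.13, and Pprc1, a coactivator, by 1.17 and 0.82. Ppargc1a, the coactivator PGC-1 alpha, lay at 0.578 and 0.521 CPM in CIS-null cells in vitro, 2.398 and 1.30 CPM in wild-type cells in vitro, 2.44 and 2.12 CPM in CIS-null cells ex vivo, and 2.15 and 1.42 CPM in wild-type cells ex vivo. It was 1.74 lower on the log2 scale in CIS-null than in wild-type cells in vitro. Its levels were low in every library, and the wild-type libraries in vitro lay well apart. No value with the length trend removed is given for Ppargc1a, and a link to the members was not tested.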
